A study of Mus musculus with 4 samples.

Results

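Transcript levels of 10 genes that control the turnover of actin filaments were followed across 4 RNA sequencing libraries of cultured mouse heart cells. The genes are Cfl1, Cfl2, Dstn, Ssh1, Ssh2, Ssh3, Limk1, Limk2, Cap1 and Cap2. They were chosen by symbol, and all 10 were found among 27267 genes, in 12 transcript records of which Limk2 has 3. All 10 passed a filter that kept 13502 genes, a mean level of 1 CPM or more over the 4 libraries (reads relative to the scaled library size). The cells were cardiomyocytes of CD1 mice at postnatal day 1. The mock library came from cells labelled as mock transfected. The cel-miR-67 library came from cells given 50 nM of a mimic of a Caenorhabditis elegans microRNA, used as a control mimic. Mimics were delivered with Lipofectamine RNAimax. The other libraries came from cells given 50 nM of a mimic of hsa-miR-590-3p or of hsa-miR-199a-3p, human microRNAs that the study examined for their effect on the proliferation of these cells. All cells were collected 72 h after transfection, and each condition had 1 library.

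Actin filaments grow at one end and are taken apart at the other, and cofilins speed up this cycle by binding aged filaments, severing them and releasing monomers. LIM kinases switch cofilins off by phosphorylation, and slingshot phosphatases switch them on again by removing the phosphate. Cyclase-associated proteins help cofilin at filament ends and recharge the released monomers for another round. In striated muscle the muscle isoform, encoded by Cfl2, helps set thin filament length, and inherited loss of CFL2 causes a nemaline myopathy. Dividing cells need cofilin and its regulators for the contractile ring. Later published work on these microRNAs took up Cfl2 as a target of hsa-miR-199a-3p.

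The microRNA under which a member differed most is shown by its mature sequence, since a microRNA recognises transcripts mainly through its seed. RefSeq (GRCm38.p6) lists the mouse microRNA of the same name at 2 loci with 1 mature sequence of 22 bases. These are chr1:162217883-162217904 on the plus strand (Mir199a-2, overlapping Dnm3 and Dnm3os) and chr9:21496498-21496519 on the minus strand (Mir199a-1, overlapping Dnm2). Capitals mark the seed, bases 2 to 8, counted from the 5′ end. A transcript that pairs with the whole seed holds the complement ACUACUG. Whether the member transcripts hold it was not analysed here.
mmu-miR-199a-3p: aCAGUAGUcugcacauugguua

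Libraries held 31638930 to 38745528 reads assigned to transcripts, of which 67.6% to 68.7% were placed uniquely, and a count of 0 allows at most 0.0987 CPM (3 reads). With 1 library per condition there is no replicate, no test and no p-value. A gene met the 2-fold criterion when it differed by 2-fold or more from each control, in 1 direction. The 95% intervals below cover counting error only and not the spread between cultures. PCR copies cannot be told from separate molecules here, so the intervals can be too narrow even for that error. The 2 microRNAs share both controls, so their values are set side by side and not correlated. Levels of cell type markers were set beside the label of the cells. Such sums depend on the genes in each list and cannot give the share of each cell type. All 10 cardiomyocyte markers were measured, with a summed level of 15578 to 21987 RPKM (reads per kilobase of transcript, relative to library size), against 2086 to 2507 RPKM for 8 fibroblast markers and 2187 to 3472 RPKM for 6 markers of smooth muscle and pericytes. In what follows, paired values in parentheses after a gene are log2 ratios, 4 values in a row stand for mock, then cel-miR-67, then hsa-miR-590-3p, then hsa-miR-199a-3p, and 2 ratios in a row stand for cel-miR-67, then mock, as the base. Markers of other cell types were thus present, and in bulk samples fewer cells of a type and less RNA per cell cannot be told apart.

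Per transcript length, Cfl1 and Dstn were the most abundant of the 10 genes, and the LIM kinases and slingshots the least. Cfl1, non-muscle cofilin, led in every library with 558 to 610.5 RPKM, followed by Dstn, destrin or actin depolymerizing factor, with 224 to 325 RPKM. These values count shared reads. Under hsa-miR-199a-3p Cfl1 had 14557 unique reads on 1196 bases, and Dstn had 24150 on 1918 bases. Per base, unique reads thus put Dstn slightly above Cfl1 in that library, but not in the others. Cap1 (119 to 145 RPKM) lay above Cap2 (93.8 to 108 RPKM) in each library. Cfl2 came next with 76.4 to 85.8 RPKM in 3 libraries and 39.4 RPKM under hsa-miR-199a-3p. Limk2 (23.1 to 29.0 RPKM) and Ssh2 (17.2 to 23.0 RPKM) were close to each other, and Limk1, Ssh1 and Ssh3 reached at most 9.89 RPKM. The order of Limk1 and Ssh1 differed between libraries, with Ssh1 the higher in mock and under hsa-miR-590-3p and Limk1 under cel-miR-67 and hsa-miR-199a-3p.

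**Figure D1:**
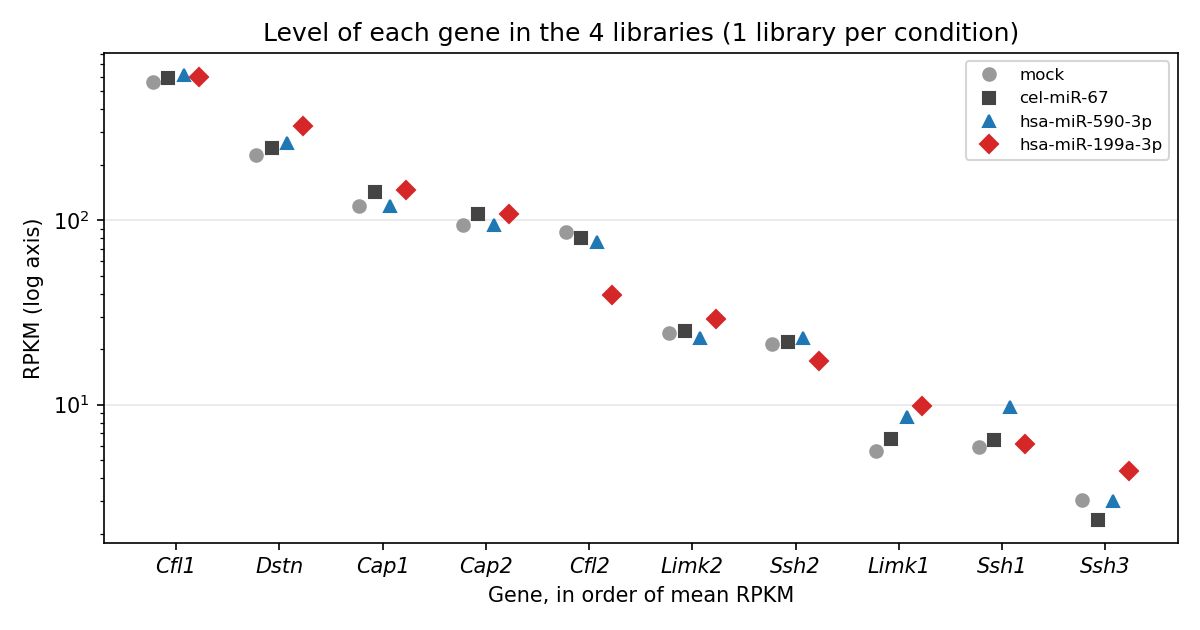
RPKM of the 10 genes (log axis) in each of the 4 libraries, 1 point per library, with no error bar because each condition has 1 library. Cfl2 stands at 39.4 RPKM under hsa-miR-199a-3p against 76.4 to 85.8 in the other libraries, while the points of Cfl1 lie between 558 and 610.5.

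Of the 10 genes, 1 met the 2-fold criterion under hsa-miR-199a-3p, and 0 did under hsa-miR-590-3p. Over all genes the criterion was met by 4.74% under hsa-miR-199a-3p and by 0.585% under hsa-miR-590-3p, and 2.34% were lower and 2.40% higher by it under hsa-miR-199a-3p, against 0.230% and 0.356% for hsa-miR-590-3p. With 10 genes, a count of 0 or 1 is near these shares. In smaller shifts, 4 members lay above and 4 below both controls under hsa-miR-199a-3p, where 40.2% and 41.9% of all genes did. Under hsa-miR-590-3p the numbers were 3 above and 4 below, where 35.6% and 36.6% of all genes were. The median log2 ratio of the members against cel-miR-67 and against mock was -0.07 and 0.11 under hsa-miR-199a-3p and -0.02 and -0.03 under hsa-miR-590-3p. Over all genes these 4 medians were -0.01 or nearer to 0. The 10 genes thus lay on both sides of the controls, and they are described by role.

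Cfl2, which encodes the cofilin of skeletal and heart muscle, was the gene that met the criterion. It had 7982 reads in mock, 8033 under cel-miR-67, 7739 under hsa-miR-590-3p and 4485 under hsa-miR-199a-3p, or 262.7, 240.2, 218.9 and 111.4 CPM. The hsa-miR-199a-3p library was thus low and the other 3 were close together. Its ratio under hsa-miR-199a-3p was 0.464 against cel-miR-67 (95% interval 0.447 to 0.481) and 0.424 against mock (0.409 to 0.440), or log2 ratios of -1.11 and -1.24. Among the 13502 genes, 2.67% had a lower ratio against cel-miR-67 and 1.98% a lower ratio against mock. Under hsa-miR-590-3p the ratios were 0.912 (0.883 to 0.941) and 0.833 (0.808 to 0.860), while the controls themselves differed by a ratio of 0.914 (0.886 to 0.943). The value under hsa-miR-590-3p was therefore about as far from cel-miR-67 as cel-miR-67 was from mock. Between the microRNAs, the ratio of hsa-miR-590-3p to hsa-miR-199a-3p for Cfl2 was 1.97 (1.89 to 2.04), just short of 2-fold. None of the 10 genes was 2-fold apart in that comparison, against 4.58% of all genes, and 4 of the 10 were higher under hsa-miR-590-3p, against 50.4% of all genes. All reads of Cfl2 were placed uniquely.

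Most cardiomyocyte markers were also lower than both controls under both microRNAs. Their summed level was 49638 CPM in mock, 44059 under cel-miR-67, 34016 under hsa-miR-590-3p and 35023 under hsa-miR-199a-3p, with none of the 10 markers at 0. Under hsa-miR-199a-3p 7 of the 10 lay below both controls, and under hsa-miR-590-3p 8 of 10 did. The median log2 ratios of the 10 markers were -0.27 and -0.49 in either case. Summed as RPKM, the markers gave 21987, 18621, 15578 and 18908, so on that scale the hsa-miR-199a-3p library lay between the controls and above hsa-miR-590-3p. Ryr2 (-1.38 and -1.14) and Pln (-1.55 and -1.43, with 4.08% of its reads unique) met the criterion under hsa-miR-199a-3p. Also below both controls there were Myh6 (-0.41 and -0.56), Myh7 (-0.37 and -0.59), Tnnt2 (-0.43 and -0.58) and Tnni3 (-0.17 and -0.42). Unique reads made up 0.16% for Myh6, 16.9% for Myh7 and 0.0018% for Tnnt2. Actn2, which crosslinks actin at the Z-disc, was below them too, with log2 ratios of -0.10 and -0.20. The myosin light chains Myl7 (0.80 and 0.54), Myl3 (0.38 and 0.02) and Myl2 (0.53 and -0.02) were above cel-miR-67. All 10 markers are thus given. The part of these markers in the value of Cfl2 was not tested.

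Cfl1 lay close to the controls under both microRNAs. It had 21105 reads in mock, 24308 under cel-miR-67, 25155 under hsa-miR-590-3p and 27628 under hsa-miR-199a-3p, or 694.5, 726.8, 711.6 and 686.0 CPM. Its ratios to the controls were 0.944 and 0.988 under hsa-miR-199a-3p and 0.979 and 1.02 under hsa-miR-590-3p, with the control libraries 1.05 apart. The 4 libraries were thus close together for Cfl1, and the sign of these small differences depended on scaling. With library totals as the scale, the log2 ratio of hsa-miR-199a-3p to mock was 0.10 in place of -0.02. Between 50.6% and 53.1% of the reads of Cfl1 were placed uniquely, so part of its level is shared with records of similar sequence.

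Dstn, the third member of the cofilin family, lay higher under hsa-miR-199a-3p. It had 13617 reads in mock, 16221 under cel-miR-67, 17375 under hsa-miR-590-3p and 24150 under hsa-miR-199a-3p, or 448.1, 485.0, 491.5 and 599.7 CPM. Its ratio under hsa-miR-199a-3p was 1.24 against cel-miR-67 (1.21 to 1.26) and 1.34 against mock (1.31 to 1.37), compared with 1.08 between the controls. Under hsa-miR-590-3p the ratios were 1.01 and 1.10. The hsa-miR-199a-3p library was thus the highest for Dstn and the lowest for Cfl2, and neither gene has shared reads.

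Within the family the muscle isoform made up a smaller part under hsa-miR-199a-3p. Cfl2 gave 9.89% of the summed RPKM of the 3 genes in mock, 8.67% under cel-miR-67, 8.04% under hsa-miR-590-3p and 4.10% under hsa-miR-199a-3p. Dstn gave 25.9%, 26.8%, 27.7% and 33.8% in the same order, and Cfl1 64.3%, 64.5%, 64.3% and 62.1%. Such shares do not depend on how libraries are scaled. They count shared reads, however, and only 50.6% to 53.1% of the reads of Cfl1 were placed uniquely. The summed RPKM of the family was 867.9, 920.0, 949.8 and 960.6 in the authors' RPKM, which is relative to library totals. The order of these sums can differ on another scale. The ratio of Cfl1 to Cfl2 in RPKM was 6.50 in mock, 7.44 under cel-miR-67, 7.99 under hsa-miR-590-3p and 15.1 under hsa-miR-199a-3p. The ratio of Dstn to Cfl2 was 2.61, 3.10, 3.44 and 8.25. Both ratios were therefore lowest in mock and far the highest under hsa-miR-199a-3p.

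**Figure D2:**
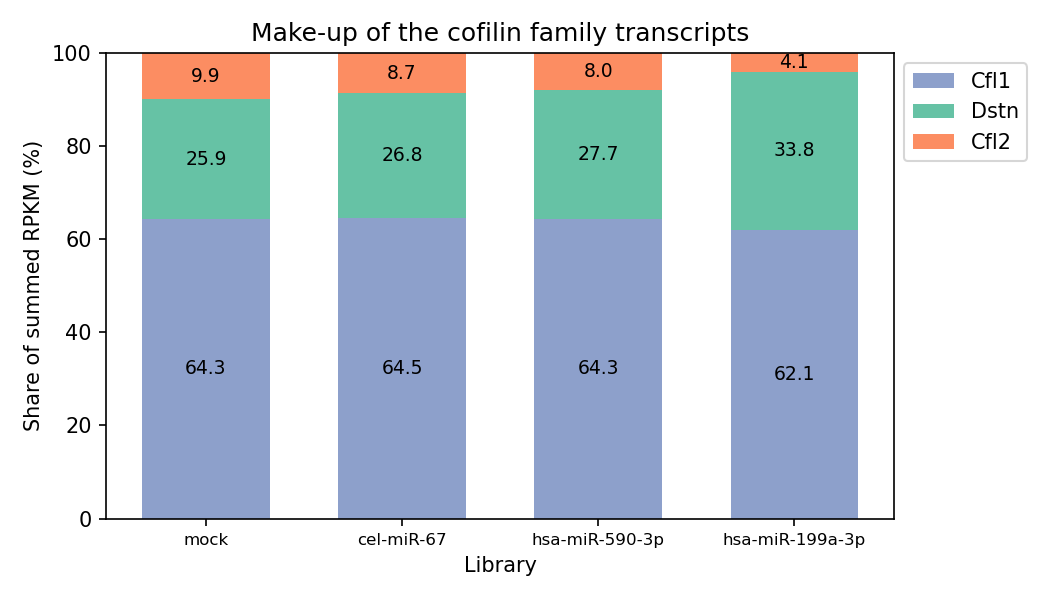
Share of Cfl1, Dstn and Cfl2 in the summed RPKM of the 3 genes (percent, y axis) in each library (x axis), 1 library per bar. Cfl2 takes 8.04% to 9.89% in 3 libraries and 4.10% under hsa-miR-199a-3p, where Dstn takes 33.8%.

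The slingshot phosphatases, which activate cofilin, differed from one another. Ssh1 had 594 reads in mock, 696 under cel-miR-67, 1063 under hsa-miR-590-3p and 753 under hsa-miR-199a-3p, or 19.5, 20.8, 30.1 and 18.7 CPM. The hsa-miR-590-3p library was high and the others lay together. Its ratio under hsa-miR-590-3p was 1.44 against cel-miR-67 (1.31 to 1.59) and 1.54 against mock (1.39 to 1.70). Of all genes, 91.9% had a lower ratio against cel-miR-67 and 95.3% a lower ratio against mock. Under hsa-miR-199a-3p the ratios were 0.899 and 0.957, and the latter had an interval of 0.858 to 1.07. Scaling by total counts gave a log2 ratio of 0.05 in place of -0.06 there. The direct ratio of hsa-miR-590-3p to hsa-miR-199a-3p for Ssh1 was 1.61 (1.46 to 1.77).

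Ssh2, the most abundant slingshot, had 6098 reads in mock, 6793 under cel-miR-67, 7151 under hsa-miR-590-3p and 6020 under hsa-miR-199a-3p, or 200.7, 203.1, 202.3 and 149.5 CPM. Here the hsa-miR-199a-3p library was low and the other 3 lay between 200.7 and 203.1 CPM. Its ratio under hsa-miR-199a-3p was 0.736 against cel-miR-67 (0.711 to 0.762) and 0.745 against mock (0.719 to 0.772). Of its reads 67.9% to 69.3% were placed uniquely. Ssh3 was the weakest of the 10 genes, with 263, 221, 283 and 463 reads, or 8.66, 6.61, 8.01 and 11.5 CPM. The hsa-miR-199a-3p library was the highest and cel-miR-67 the lowest. Its ratio under hsa-miR-199a-3p was 1.74 against cel-miR-67 (1.48 to 2.05) and 1.33 against mock (1.14 to 1.55), but the controls differed by a ratio of 0.764 (0.636 to 0.917). Ssh3 was the member with the widest gap between controls. Ssh2 thus gave 62.1% of the summed slingshot RPKM under hsa-miR-199a-3p, compared with 70.4% in mock and 71.5% under cel-miR-67. Its share with hsa-miR-590-3p was 64.3%. The shares of Ssh3 were 10.1%, 7.69%, 8.43% and 15.8%, and those of Ssh1 were 19.5%, 20.8%, 27.2% and 22.1%. The share of Ssh2 was thus lower with both microRNAs. Its own level was lower only under hsa-miR-199a-3p. Under hsa-miR-590-3p it lay between the controls, at 202.3 CPM, while Ssh1 was above them.

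The LIM kinases inactivate cofilin, and Limk1 lay above both controls under each microRNA. Limk1 had 593 reads in mock, 743 under cel-miR-67, 981 under hsa-miR-590-3p and 1273 under hsa-miR-199a-3p, or 19.5, 22.2, 27.8 and 31.6 CPM. Both microRNA libraries were above both controls. Its ratio was 1.42 (1.30 to 1.56) and 1.62 (1.47 to 1.79) under hsa-miR-199a-3p, and 1.25 (1.13 to 1.38) and 1.42 (1.28 to 1.58) under hsa-miR-590-3p, with the controls 1.14 apart. Limk2 had 3602, 4001, 3692 and 5204 reads, or 118.5, 119.6, 104.4 and 129.2 CPM. It was slightly above the controls under hsa-miR-199a-3p, at 1.08 and 1.09, and slightly below them under hsa-miR-590-3p, at 0.873 and 0.881. Only 7.69% to 9.02% of the reads of Limk2 were placed uniquely, 304 to 400 reads per library. With unique reads alone its log2 ratios were 0.050 and 0.010 under hsa-miR-199a-3p and -0.025 and -0.064 under hsa-miR-590-3p. These are nearer to 0, but on far fewer reads and so with a larger counting error. Limk2 has 3 records. The counts do not separate reads shared among them from reads shared with other genes. Transcript variant 2 held 88.7% to 92.6% of the RPKM of Limk2. Variant 1 held 7.88% in mock, 7.17% under cel-miR-67, 9.79% under hsa-miR-590-3p and 10.8% under hsa-miR-199a-3p, on 20 to 38 unique reads.

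Set against each other, the LIM kinases and the slingshots had nearly equal summed RPKM in the controls. The summed RPKM of both LIM kinases was 0.995 of the summed RPKM of the 3 slingshots in mock, 1.03 under cel-miR-67, 0.887 under hsa-miR-590-3p and 1.40 under hsa-miR-199a-3p. The hsa-miR-590-3p library thus lay below and the hsa-miR-199a-3p library above both controls. Limk2 gave 72.9% to 81.3% of the kinase sum, and only 7.69% to 9.02% of its reads were placed uniquely. These ratios thus rest largely on shared reads. Transcript levels do not report on the activity of these enzymes.

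The cyclase-associated proteins, Cap1 of most tissues and Cap2 of striated muscle and brain, followed the same order of libraries. Cap1 had 295.8 CPM in mock, 347.5 under cel-miR-67, 279.5 under hsa-miR-590-3p and 333.6 under hsa-miR-199a-3p, and Cap2 had 358.6, 406.2, 337.3 and 383.2 CPM. On this scale both genes were lowest under hsa-miR-590-3p and highest under cel-miR-67, and the hsa-miR-199a-3p library lay between the controls. Under hsa-miR-590-3p the ratios of Cap1 were 0.804 and 0.945 and those of Cap2 0.830 and 0.940, against cel-miR-67 and mock. The controls themselves differed by ratios of 1.18 for Cap1 and 1.13 for Cap2, with cel-miR-67 the higher. Under hsa-miR-590-3p the sign against mock depended on scaling. With library totals as the scale these log2 ratios were 0.014 for Cap1 and 0.0067 for Cap2, in place of -0.08 and -0.09. On that scale hsa-miR-199a-3p also lay above both controls. Its log2 ratios against cel-miR-67 were then 0.031 for Cap1 and 0.0062 for Cap2, in place of -0.06 and -0.08. The ratio of Cap1 to Cap2 stayed between 1.27 and 1.34 in all 4 libraries.

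**Figure D3:**
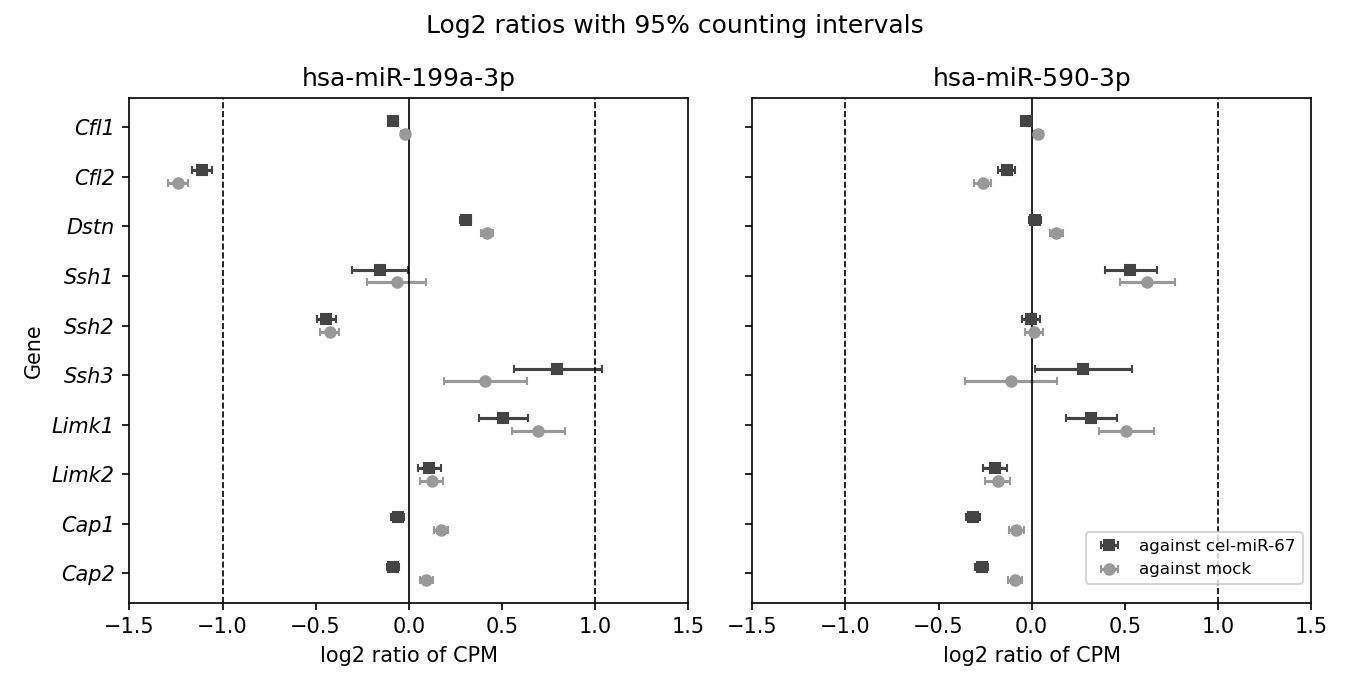
Log2 ratio of CPM (x axis) of each gene (y axis) against cel-miR-67 (squares) and against mock (circles), for hsa-miR-199a-3p on the left and hsa-miR-590-3p on the right. Bars are 95% counting intervals, dashed lines mark 2-fold, and Cfl2 under hsa-miR-199a-3p, at -1.11 and -1.24, is the gene beyond them.

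The difference between the controls gives the only measure of how far libraries without a tested microRNA lie apart. None of the 10 genes was 2-fold apart between cel-miR-67 and mock, where 1.98% of all genes were, and 8 of the 10 were higher under cel-miR-67, where 50.3% of all genes were. The median size of that log2 difference was 0.12 for the members and 0.15 for all genes. Under hsa-miR-199a-3p 6 members lay further from both controls, in 1 direction, than the controls from each other, and these were Cfl2, Dstn, Ssh2, Ssh3, Limk1 and Limk2. Over all genes 56.0% did so. Under hsa-miR-590-3p Cfl2, Ssh1, Limk1 and Limk2 did, 4 of 10, compared with 39.1% of all genes. Both counts are near the background, and this yardstick was chosen after the values were seen.

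Among 106 other genes of actin turnover, 99 passed the filter, and 4 of them met the 2-fold criterion under hsa-miR-199a-3p, a pair higher and a pair lower, near the 4.74% of all genes. No gene did so under the other microRNA. Of the 99, 35 lay above and 42 below both controls under hsa-miR-199a-3p, and 35 and 40 under hsa-miR-590-3p, with medians of -0.05 and -0.01, and of -0.04 and -0.01. For all genes the shares above and below are the 40.2% and 41.9%, and the 35.6% and 36.6%, given before. The genes lower under hsa-miR-199a-3p were Pak4, a p21-activated kinase that phosphorylates and activates LIM kinases, and Nckap1, a subunit of the WAVE complex that turns on Arp2/3. Pak4 had 949, 835, 1416 and 459 reads, with log2 ratios of -1.13 and -1.45 under hsa-miR-199a-3p and 0.68 and 0.36 under hsa-miR-590-3p. Nckap1 had 7016, 6908, 8671 and 3839 reads, with -1.12 and -1.28, and 0.25 and 0.09. The genes higher under hsa-miR-199a-3p were Avil, advillin of the gelsolin family, with 35, 35, 24 and 333 reads, and Cyfip2, another subunit of the WAVE complex, with 395, 275, 578 and 1593 reads. Their log2 ratios were 2.96 and 2.83 for Avil and 2.26 and 1.60 for Cyfip2.

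**Figure D4:**
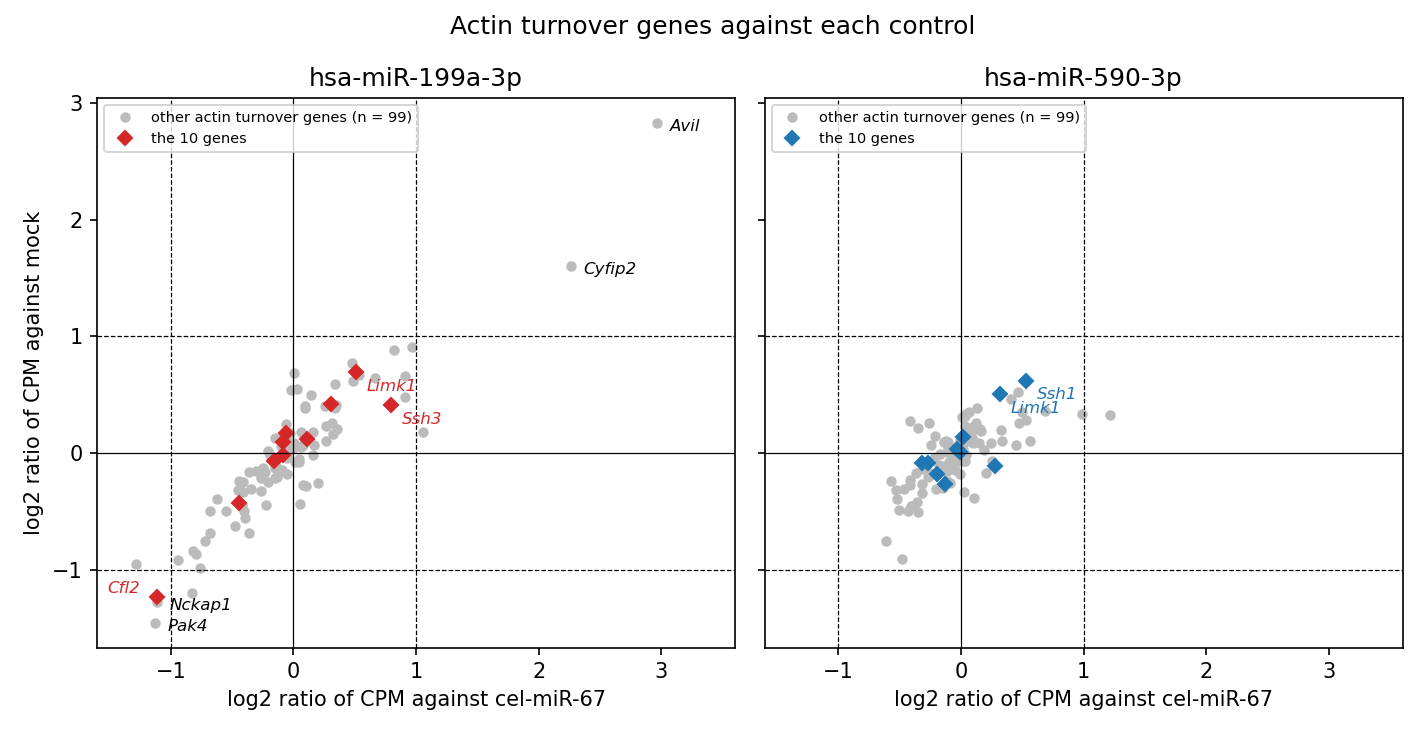
Log2 ratio of CPM against cel-miR-67 (x axis) and against mock (y axis) of the 10 genes (diamonds) and of 99 other genes of actin turnover (grey), for hsa-miR-199a-3p on the left and hsa-miR-590-3p on the right. Dashed lines mark 2-fold, and Cfl2, Pak4, Nckap1, Avil and Cyfip2 lie beyond both on the left while no gene does on the right.

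Among the other kinases and GTPases upstream of cofilin, the gene with most reads, Rhoa, had log2 ratios of 0.16 and -0.02 under hsa-miR-199a-3p. Other p21-activated kinases were Pak1 (0.06 and -0.44) and Pak2 (-0.05 and -0.04). The testis-type kinases, which also phosphorylate cofilin, were Tesk1 (-0.15 and 0.13) and Tesk2 (0.08 and 0.07). Of 15 genes in this list, 4 were above and 6 below both controls under hsa-miR-199a-3p, and 7 and 7 under hsa-miR-590-3p.

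Beside the slingshots, cofilin is also dephosphorylated by chronophin, encoded by Pdxp, which had 377 reads in mock, 349 under cel-miR-67, 533 under hsa-miR-590-3p and 790 under hsa-miR-199a-3p. Its log2 ratios were 0.91 and 0.66 under hsa-miR-199a-3p and 0.53 and 0.28 under hsa-miR-590-3p, so both microRNA libraries lay above both controls, short of 2-fold. Ywhaz, a 14-3-3 protein that binds phosphorylated cofilin and has most reads in its list, had log2 ratios of -0.08 and 0.09 with hsa-miR-199a-3p. Wdr1, the cofactor that speeds up severing by cofilin, had log2 ratios of 0.11 and 0.14 under hsa-miR-199a-3p and -0.07 and -0.04 under hsa-miR-590-3p. Mical2, a monooxygenase that oxidises actin and has most reads among the disassembly genes, had log2 ratios of -0.62 and -0.39 with hsa-miR-199a-3p, with 49.4% of its reads placed uniquely.

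Actin itself, the substrate of the cofilins, differed by isoform. Actc1, cardiac alpha-actin and the most abundant isoform, had 7110 RPKM in mock, 6482 under cel-miR-67, 5353 under hsa-miR-590-3p and 5243 under hsa-miR-199a-3p. It was thus below both controls under both microRNAs, with log2 ratios of -0.40 and -0.55 under hsa-miR-199a-3p and -0.35 and -0.50 under hsa-miR-590-3p. Acta2, smooth muscle alpha-actin, had 1454, 1812, 1963 and 2681 RPKM in the same order, with log2 ratios of 0.48 and 0.77 under hsa-miR-199a-3p and 0.04 and 0.34 under hsa-miR-590-3p. Acta1, skeletal alpha-actin, had log2 ratios of 0.91 and 0.48 under hsa-miR-199a-3p and of -0.48 and -0.91 under hsa-miR-590-3p. The cytoplasmic isoforms Actb (-0.21 and 0.01) and Actg1 (-0.10 and 0.06), and Actg2 (-0.02 and 0.54), lay between the controls under hsa-miR-199a-3p. Only 4.52% of the reads of Actg1 were placed uniquely. The smooth muscle and pericyte markers, of which Acta2 is a part, had none of 6 at 0. Their sum was 4073 CPM in mock, 4944 under cel-miR-67, 4717 under hsa-miR-590-3p and 5992 under hsa-miR-199a-3p. Acta2 itself had a mean of 3498 CPM over the 4 libraries, so this sum largely repeats its values. Of the 6 markers, 3 lay above and 3 below both controls under hsa-miR-199a-3p. The part of the other markers in the value of Acta2 was not tested.

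In the lists of actin turnover genes, no gene that passed the filter met the criterion beside those named above. Among the fibroblast, smooth muscle and pericyte markers, none was higher by it under hsa-miR-199a-3p. Lower by it there were Postn (-2.05 and -1.61, with 2.49% of its reads unique) and Rgs5 (-1.12 and -1.14). Pairs given without a microRNA below belong to hsa-miR-199a-3p. In the Arp2/3 complex, which nucleates branched filaments, none of 9 genes met the criterion, and Actr3, with most reads, had log2 ratios of -0.14 and -0.11 under hsa-miR-199a-3p and had few uniquely placed reads. Among 6 monomer-binding genes Pfn1, profilin, had log2 ratios of 0.13 and 0.12. Of 12 measured formins none met the criterion, and Fhod3, the formin of cardiac sarcomeres, had log2 ratios of -0.07 and 0.14 under hsa-miR-199a-3p and of -0.53 and -0.31 under hsa-miR-590-3p. Svil, supervillin, with most reads in the capping and gelsolin list, had log2 ratios of -0.08 and -0.01, and Tpm1, tropomyosin, which shields filaments from cofilin, had -0.09 and -0.14. Only 0.40% of the reads of Tpm1 were placed uniquely. All 4 genes of the SRF and MRTF list, which drives many actin genes, lay above both controls under hsa-miR-590-3p, where 35.6% of all genes did, and 0 did under hsa-miR-199a-3p. The values against cel-miR-67 were small, from 0.0051 for Mrtfa to 0.095 for Myocd, and for Srf, Mrtfa and Mrtfb the controls differed by more (0.20, 0.31 and 0.13). Myocd, with most reads among them, had log2 ratios of 0.09 and 0.11 under hsa-miR-590-3p, with 4.52% unique reads. The reference gene Gapdh had log2 ratios of 0.03 and -0.01 under hsa-miR-199a-3p and of -0.18 and -0.23 under hsa-miR-590-3p.

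The genes whose pattern over the 4 libraries was most like that of Cfl2 were sought by the Euclidean distance of log2 CPM centred on each gene's mean. The search covered 9230 other genes whose mean level reached 10 CPM. It left out symbols of gene models, pseudogenes and microRNAs, and symbols not of a short form of letters and digits. The nearest was Ttn, titin, the giant spring protein of the sarcomere, at a distance of 0.03, with 93577 reads in mock, 94881 under cel-miR-67, 89080 under hsa-miR-590-3p and 52162 under hsa-miR-199a-3p. Its log2 ratios were -1.13 and -1.25 under hsa-miR-199a-3p, close to the -1.11 and -1.24 of Cfl2. Next came Sh3glb1, endophilin B1, at 0.04, Rabgap1l at 0.06, and Rab11fip2 and Dnajb4 at 0.07. With 4 points per gene many genes lie close, and 137 were within a distance of 0.25.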

How the data were processed

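RNA was sequenced from 4 libraries (TruSeq kit, per the labels' protocols), grouped by the treatment in the labels. Per the file headers, the deposited files list 36065 RefSeq records, each with a total read count, a unique read count and RPKM. In the deposited values RPKM is the total read count per kilobase relative to the summed reads. CASAVA 1.8 and mm8 are named in the submitters' processing notes without a role. The program that placed the reads was not given in the sources used here. Total reads include those shared with other records.

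Records were paired with symbols by accession (27926) or header (8139) and summed per gene. TMM factors from edgeR 4.0.16 under R 4.3.3 set the scale of the counts, with no edgeR test, and log2 ratios of CPM used a prior count of 0.5. Intervals are exact conditional binomial (Clopper-Pearson). The calculation was tested on simulated data. Python 3.11.15, numpy 2.4.6, pandas 2.3.3, scipy 1.17.1 and matplotlib 3.10.9 were used, and DESeq2 1.42.0 gave size factors for an alternative. Gene coordinates are not printed, because the reference (GRCm38.p6) is another build. The members and lists were chosen with earlier results of these data known. Named genes were all members, list genes past the criterion (at most 4 per list and direction), the gene with the highest mean CPM of each list, all actin isoforms, 9 direct partners of cofilin or its kinases (some not reported here), Gapdh, and the 5 patterns nearest to Cfl2. Markers of other cell types summed were 8 fibroblast genes (9945 to 11696 CPM, 3 of 8 above and 5 below both controls under hsa-miR-199a-3p), 6 endothelial genes (143.3 to 179.3 CPM) and 6 macrophage and leukocyte genes (18.7 CPM in mock, 5.83 to 7.89 CPM elsewhere).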

Additional observations from a re-analysis of the deposited data

Results flagged for a closer look

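Among 37 genes named by the rule, 12 lay above both controls under 1 microRNA and below both under the other, and with 1 library per condition this difference was not tested. The share of all genes with such opposite directions was not computed. Of all genes, 40.2% lay above and 41.9% below both controls under hsa-miR-199a-3p, and 35.6% and 36.6% under hsa-miR-590-3p. Some of the 37 were named because they met the 2-fold criterion under hsa-miR-199a-3p. The members among the 12 were Ssh1, with a log2 ratio of hsa-miR-590-3p to hsa-miR-199a-3p of 0.69, and Limk2, with -0.31. Among the other actin genes the largest were Avil (-3.58), Pak4 (1.81), Acta1 (-1.39) and Nckap1 (1.36). For these 4 and Limk2 the opposite directions held under all 5 alternatives of scaling and read counting. For Limk2 the ratio between the microRNAs was -0.074 with unique reads, on 333 reads under hsa-miR-590-3p and 400 under hsa-miR-199a-3p. The others were Myocd (0.25), Actr3 (0.21), Wdr1 (-0.17), Svil (0.084), Tesk2 (-0.0805) and Pak2 (0.074). For these 6 and Ssh1 the opposite directions were lost under 1 or more of those alternatives. Avil rests on 24 to 35 reads in 3 of the 4 libraries.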

How the results depend on the processing

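The count of members past the criterion, 1 under hsa-miR-199a-3p and 0 under hsa-miR-590-3p, was the same under all 9 alternatives, as were the counts of 0 between the controls and between the microRNAs under the 8 that apply. Over these 8, the log2 ratio of Cfl2 under hsa-miR-199a-3p stayed between -1.11 and -1.02 against cel-miR-67 and between -1.24 and -1.12 against mock. These alternatives are not independent of one another. A change of filter leaves every member ratio as it was. All reads of Cfl2 are unique and lie on 1 record, so the other ways of counting alter only its scaling. The authors' RPKM and total-count scaling both use library totals. Of 60 member ratios, 10 changed sign under some alternative, all at 0.09 or less on the log2 scale. The count of other actin genes past it under hsa-miR-199a-3p, 4, ranged from 3 to 6. Without a filter 1 other actin gene, Fmn2, was past 2-fold with hsa-miR-590-3p, on 7 reads against 0 (cel-miR-67) and 1 (mock). Over all genes the criterion was met by 640 genes for hsa-miR-199a-3p and by 79 for hsa-miR-590-3p. These counts were 2654 and 1539 without a filter and 402 and 31 at a minimum mean of 5 CPM, and 157 under hsa-miR-590-3p against the mean of both controls. The share of higher calls, 50.6% and 60.8%, was 63.2% and 73.6% with total-count scaling and 63.7% and 73.7% with the authors' RPKM. Under hsa-miR-199a-3p it was also 61.5% without a filter, and 41.5% at a minimum mean of 5 CPM. Total-count scaling moved the median of all genes to 0.10 for hsa-miR-199a-3p against mock. No paired analysis was possible because each condition has 1 library.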
